A study of Patiria miniata with 46 samples.

Results

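The 200 loci described here are those whose polyadenylated RNA was most concentrated in the first 2 sections of an oral-aboral series through an arm of the bat star Patiria miniata, a sea star. They were taken from 16290 loci with at least 100 counts over the 8 oral-aboral sections, out of 23869 loci in all. Members were selected on a ratio, the mean level of sections 1 and 2 over the largest level among sections 4 to 8, and the 200 highest were kept. Levels are CPM, counts per 1000000 counts of a section with the single most abundant locus, V4_HAP1_PB.21421, left out of the total, and 1 CPM was added to both sides of the ratio. The oral-aboral levels therefore chose the members and are given below as a description, with no test. The proximo-distal and left-right sections were not used to choose them.

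Single arms of young animals, with no treatment named in the labels, were frozen and cut into serial sections through the whole arm. Specimen 1 gave the oral-aboral series of 8 sections, cut parallel to its faces, and the proximo-distal series of 22 sections along the length of an arm. Specimen 2 gave the left-right series of 16 sections across the width of an arm. The labels number the sections without saying which face, end or side section 1 is, so every direction is given by section number.

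The arm of a sea star has an oral face, with the ambulacral groove, the radial nerve cord and the tube feet, and an aboral face of body wall with skeletal plates, papulae and spines. The coelom and the paired digestive caeca lie between them, and the gonads lie near the base. A slice parallel to the faces therefore passes through other tissues than its neighbours, whereas a slice across the arm holds all layers of one level. In these bulk sections, fewer cells of a type and less RNA per cell cannot be told apart.

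There is 1 library per position and no replicate of any, so a p-value sets a trend against the scatter of sections in 1 arm. Neighbouring sections are not independent, which makes these p-values approximate. Total counts ranged from 196002 to 680685 in the proximo-distal series, from 2573762 to 6921408 in the oral-aboral series and from 250704 to 1591759 in the left-right series. A count of 0 allows up to 16.3 CPM in the proximo-distal section where this limit is highest, up to 1.26 CPM in the oral-aboral series and up to 12.0 CPM in the left-right series. Intervals and such limits cover counting error only. V4_HAP1_PB.21421 held between 0.453% and 50.3% of the counts of a proximo-distal section, and tests were run on counts scaled by TMM with all loci. The members carry assembly identifiers without gene names, so no role or sequence can be given for them.

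The ratio of the members ran from 17.2 down to 2.01, with a median of 2.38. It was at least 5 in 23 members and under 3 in 149. The last member, V4_HAP1_PB.4436 with a ratio of 2.0124, and the first locus left out, V4_HAP1_PB.17226 with 2.0086, hardly differed. Their levels in oral-aboral sections 1 and 2 were 78.6 and 98.5 CPM for V4_HAP1_PB.4436, and 50.1 and 60.3 CPM for V4_HAP1_PB.17226. The list thus has no gap at its lower end. Total oral-aboral counts of a member ran from 100 to 33344, with a median of 770. The identifier carried the HAP1 tag in 196 members and the HAP2 tag in 4, and 174 had 1 row in the file while 26 had 2 rows that were summed.

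Together the members held 2.76% of the counts of oral-aboral section 1 and 2.05% of those of section 2. Their share was 1.06% in section 3, 0.565% in section 4, 0.481% in section 5, 0.437% in section 6, 0.673% in section 7 and 0.510% in section 8. The share therefore declined from section 1 through section 6 and was higher in section 7 than in its neighbours. Section 3 did not enter the ratio, but sections 1 and 2 did, so its standing below them follows in part from the choice. It lay below the mean of sections 1 and 2 in 177 members, below both in 168 and above both in 2. Both section 1 and section 2 exceeded every one of sections 4 to 8 in 174 members, and section 1 exceeded section 2 in 117.

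The members fell into 3 classes by the balance of the first 2 sections. These classes were drawn after the values were seen, with a difference of over 2-fold in CPM + 1 as the limit. Loci of both sections numbered 128, section 1 loci 40 and section 2 loci 32. Loci of both had median levels of 41.7 and 38.1 CPM in oral-aboral sections 1 and 2, 18.1 CPM in section 3 and between 8.58 and 14.2 CPM in sections 4 to 8. Section 1 loci had a median of 52.1 CPM in section 1, then 21.0, 10.9, 4.39 and 3.70 CPM in sections 2 to 5, and 11.9 CPM in section 8. They were thus lowest in the inner sections and partly recovered at the opposite face. Section 2 loci had medians of 1.44, 64.3, 35.6 and 6.10 CPM in sections 1 to 4 and at most 0.832 CPM in each later section. Of the 32, 31 were highest in section 2 and 6 had at least 10 CPM in section 1, up to 186.0 CPM in V4_HAP1_PB.4110.

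**Figure D1:**
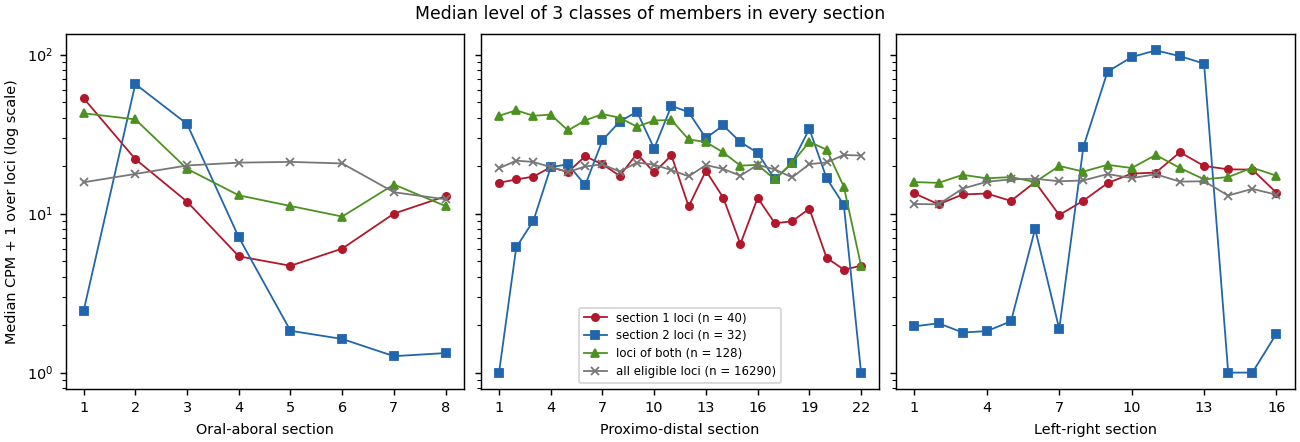
Median CPM + 1 (log axis) of section 1 loci, section 2 loci, loci of both sections and all 16290 eligible loci, in each oral-aboral, proximo-distal and left-right section. In the left-right panel the section 2 loci stand between 77.1 and 105.3 CPM in sections 9 to 13, at 25.3 CPM in section 8 and at no more than 7.01 CPM in every other section, while the other classes stay close to all loci.

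Along the proximo-distal axis the members fell towards section 22. They held 1.82% of the counts in section 1, 2.44% in section 8, where their share was highest, 1.38% in section 16, 1.16% in section 20, 0.583% in section 21 and 0.293% in section 22 (exact 95% binomial interval 0.273% to 0.314%). Of the 2.44% in section 8, 0.585% came from a set of 21 members described below. The other members held between 1.72% and 1.88% in each of sections 1 to 11. Their share then dropped to 0.868% in section 15, was 1.09% in section 19 and 0.292% in section 22. The median member stood at 27.4 CPM in section 1, at 34.0 CPM in section 7 and at 3.70 CPM in section 22. The median of all eligible loci stayed between 15.9 and 22.4 CPM over the 22 sections and was 22.2 CPM in section 22. The number of members with at least 1 count was 196 in section 11, the most in any section, and 115 in section 22, the fewest.

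Of the 200 members, 146 had enough counts for the trend test. Of these, 81 fell and 0 rose along the axis (edgeR quasi-likelihood test, Benjamini-Hochberg adjusted p under 0.05 over 11067 loci). That was 55.5% of the members tested, against 19.1% of all loci tested that fell and 20.3% that rose. Before adjustment, 88 members fell and 1 rose at edgeR p under 0.05, against 5257 of the 11067 loci in either direction. DESeq2 called 7 members rising and limma-trend 1, but the share of all loci under these tests is not given here. The median log2 change over the length of the axis was -1.37 over the members tested and 0.008 over all loci tested. The low-count filter removes loci that are low in most sections. With no filter, all 200 were tested, of which 86 fell and 1 rose, against 11.8% and 14.7% of 22725 loci. Without sections 20 to 22, where the members' share was lowest, 59 of 144 members tested fell (41.0%), against 18.2% of all loci in that fit, and all 59 were among the 81. The fitted log2 change of the 81 ran from -5.25 to -0.83, with a median of -2.21. Their mean level in sections 1 to 7 was 1.55-fold to 17.2-fold that in sections 16 to 22, with a median of 3.10-fold.

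By class, the fall was called in 63 of the 98 loci of both that were tested, in 14 of 24 section 1 loci and in 4 of 24 section 2 loci. Of these 24 section 2 loci, 16 belong to a set of 21 described below, of which none fell, and 4 of the other 8 fell. The difference between the classes was not tested. Some pattern along the axis, tested as a smooth curve with 3 degrees of freedom, was called in 120 of the 146 members, against 53.4% of all loci. The curve peaked in sections 1 to 7 in 65 of the 120, in sections 8 to 15 in 54 and in sections 16 to 22 in 1. Among all loci called, 44.1% peaked in sections 16 to 22.

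V4_HAP1_PB.11537 fell with the smallest p. Over the 22 sections it ranged from 8.55 CPM in section 20 to 468.0 CPM in section 1, with a median of 99.96 CPM. It averaged 26.4 ± 14.7 CPM in sections 16 to 22 and 253.6 ± 119 CPM in sections 1 to 7 (SD, n = 7 sections each). The 2 stretches did not overlap, and the fitted log2 change was -4.32 ± 0.31 (SE, edgeR adjusted p = 4.15e-11). V4_HAP1_PB.16886 had the steepest fall, with a median of 14.1 CPM, a highest level of 120.6 CPM in section 1 and 0 counts in 3 sections. It averaged 3.54 ± 3.24 CPM in sections 16 to 22 and 60.8 ± 34.3 CPM in sections 1 to 7, a log2 change of -5.25 ± 0.55 (edgeR adjusted p = 3.28e-08). It was also one of the members barely seen in specimen 2, with 22 counts over the left-right series, and was not tested there.

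The other 3 members with the smallest p had higher levels in most sections than V4_HAP1_PB.16886. V4_HAP1_PB.8589 ranged from 122.0 CPM in section 22 to 810.8 CPM in section 2, with a median of 416.5 CPM, and averaged 217.3 ± 65.3 CPM in sections 16 to 22 and 680.6 ± 94.9 CPM in sections 1 to 7. Its log2 change was -2.20 ± 0.23 (edgeR adjusted p = 3.04e-08), the smallest of the 5 but with the least spread. V4_HAP1_PB.13204 ranged from 0 in section 22 to 205.3 CPM in section 2, with a median of 58.4 CPM. It averaged 17.5 ± 12.6 CPM in sections 16 to 22 and 134.2 ± 37.3 CPM in sections 1 to 7 (log2 change -3.90 ± 0.41, edgeR adjusted p = 3.53e-08). V4_HAP1_PB.13867 ranged from 5.44 CPM in section 15 to 142.3 CPM in section 5, with a median of 35.3 CPM, and averaged 16.1 ± 7.90 CPM in sections 16 to 22 and 102.0 ± 27.0 CPM in sections 1 to 7 (log2 change -3.62 ± 0.37, edgeR adjusted p = 2.47e-08). In all 5 most of the decline lay within sections 1 to 15, and all 5 were called under every alternative run.

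**Figure D2:**
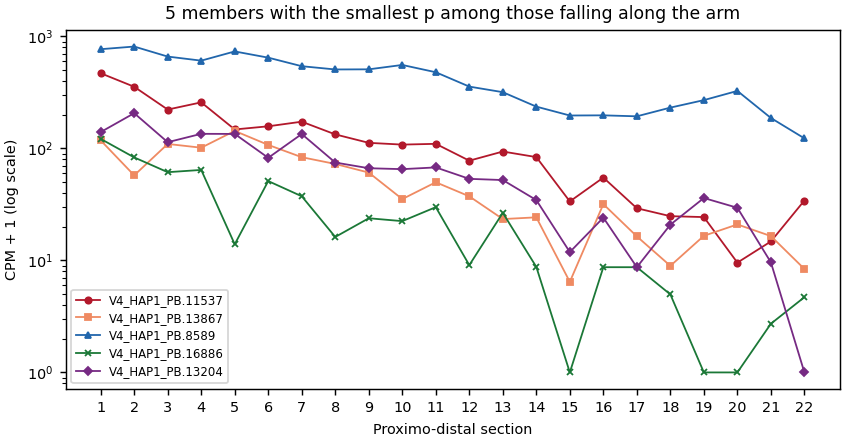
CPM + 1 (log axis) of the 5 members with the smallest p among those falling, in each of the 22 proximo-distal sections of specimen 1. Each locus declined over sections 1 to 15, for example V4_HAP1_PB.11537, which was highest at 468.0 CPM in section 1 and lowest at 8.55 CPM in section 20.

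The 5 members with the most oral-aboral counts behaved differently from one another along the arm. V4_HAP1_PB.9102 had a median of 338.3 CPM, with 25.8 CPM in section 21 and 768.3 CPM in section 3. It averaged 103.7 ± 75.0 CPM in sections 16 to 22 and 476.6 ± 148 CPM in sections 1 to 7, and fell (log2 change -3.03 ± 0.53, edgeR adjusted p = 5.90e-05). V4_HAP1_PB.3986 fell less, averaging 128.7 ± 34.8 CPM in sections 16 to 22 and 205.2 ± 54.7 CPM in sections 1 to 7 (log2 change -0.83 ± 0.29, edgeR adjusted p = 0.0245), and its range from 94.9 to 282.9 CPM was narrow. V4_HAP2_PB.12795 was highest in section 11, at 515.5 CPM, and lowest in section 22, at 81.3 CPM, with no straight-line call (adjusted p = 0.227). V4_HAP1_PB.9104 and V4_HAP1_PB.15244 also gave no straight-line call (adjusted p = 0.174 and 0.665) and are described with the section 1 loci below.

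Across the arm, in specimen 2, a set of 21 members was nearly confined to left-right sections 9 to 13. The set was drawn after the values were seen, as members with at least 20 left-right counts and at least 90% of their summed CPM in those 5 sections. It made up 10.9% of the 192 members with 20 such counts, against 0.340% of 18848 loci (64 loci). Sections 9 to 13 were chosen after the members' levels were seen, so a higher share among members was partly built in. The 18848 loci also did not have to meet the oral-aboral count minimum of the ratio. Of the 43 loci past the share that were no members, 4 met it. The 2 shares are therefore a description, with no test. In the 21, sections 9 to 13 held between 91.0% and 98.8% of the CPM, with a median of 96.9%. All 21 were higher in oral-aboral section 2 than in section 1, 15 were among the 30 members with the highest ratio, and the lowest of them ranked 164.

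The 21 summed to 17828, 24345, 22063, 16786 and 25720 CPM in left-right sections 9, 10, 11, 12 and 13. In the other 11 sections their sum ranged from 7.99 CPM in section 14 to 1696 CPM in section 8, with a median of 24.8 CPM. The block had a sharp edge on one side: section 13 had 29207 counts of these loci, 2.57% of its total, and section 14 had 2 counts. Section 14 was the shallowest left-right library, with 250704 counts. Sections 15 and 16 had 21.5 and 28.1 CPM. The part of depth in this edge was not tested. On the other side the sum was 27.3 CPM in section 7 and 1696 CPM in section 8, and a small peak of 137.0 CPM stood alone in section 6, between 31.9 CPM in section 5 and 27.3 CPM in section 7. Of the 21 loci, 19 had 0 counts in section 14.

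V4_HAP1_PB.3786 was the most abundant of the 21. In the left-right series it had 6145, 7030, 7412, 5054 and 7556 CPM in sections 9 to 13, 607.8 CPM in section 8, 43.6 CPM in section 6, 2.64 CPM in section 7 and 0 counts in the other 8 sections. Its mean was 6639 ± 1043 CPM in sections 9 to 13 and 59.5 ± 182 CPM in the other 11 sections (SD), a ratio of 112. In the oral-aboral series it stood at 3.84, 1094, 752.5 and 65.8 CPM in sections 1 to 4 and at no more than 1.48 CPM after them. V4_HAP1_PB.3393 had the largest ratio between the block and the rest, 178, at 3460 ± 805 CPM in sections 9 to 13 and 19.4 ± 51.5 CPM in the other 11. The smallest ratio, 22.3, belonged to V4_HAP1_PB.685, at 34.0 ± 10.8 CPM in sections 9 to 13 and 1.53 ± 1.12 CPM in the other 11. These ratios describe a set that was chosen for them.

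The oral-aboral levels of the 21 summed to 20.8, 3227, 2508, 231.1, 11.5, 12.1, 6.72 and 8.18 CPM in sections 1 to 8. They were thus high in 2 neighbouring oral-aboral sections of specimen 1 and in 5 neighbouring left-right sections of specimen 2. Along the length of the arm, which did not enter their choice, their sum was 58.5, 169.4 and 325.8 CPM in proximo-distal sections 1, 2 and 3. It was 2054 CPM in section 4, averaged 5111 ± 1077 CPM over sections 8 to 19 (SD, n = 12 sections, 2128 to 6355 CPM), and was 1714, 915.8 and 11.1 CPM in sections 20, 21 and 22. Section 22 held 3 counts of these loci. The set was therefore low at both ends of the arm and high along most of its length.

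Of the 21, 16 were tested along the proximo-distal axis. None rose or fell along a straight line over all 22 sections (edgeR quasi-likelihood test), 1 of the 16 had an unadjusted p under 0.05, and all 16 of 16 were called for a curve. A fit without sections 20 to 22 was chosen after the data were seen, and it drops the low levels of the 21 at that end. In it 15 of the 144 members tested rose, a smaller share than the 17.8% of all loci. All 15 belonged to the 21, and they were all of the 21 that could be tested there (edgeR adjusted p from 1.99e-05 to 0.0334). V4_HAP1_PB.3786 ranged from 0 in section 22 to 1405 CPM in section 13 along the axis, with a median of 664.6 CPM. V4_HAP1_PB.17913 and V4_HAP1_PB.17914, which carry consecutive identifiers, peaked at 852.5 CPM in section 14 and 1184 CPM in section 13.

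The block was not made of members alone. Of the 64 loci past the 90% share, 43 were no members. Of these 43, 34 had their highest oral-aboral level in section 2 or 3, and 4 had at least the 100 oral-aboral counts that the ratio required. None of the 43 carried a gene symbol, but only 67 of all 23869 loci do.

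**Figure D3:**
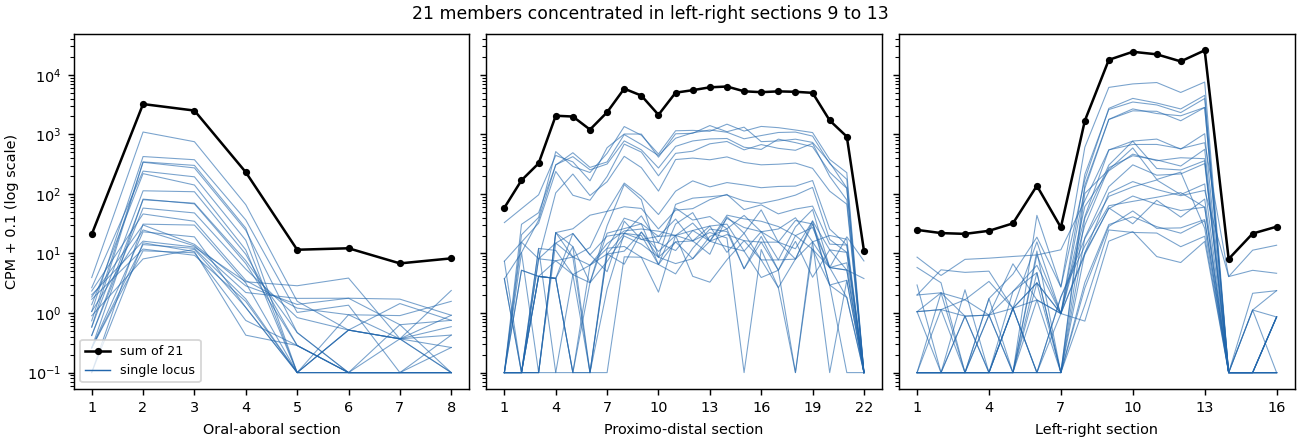
CPM + 0.1 (log axis) of the 21 members with at least 90% of their left-right CPM in sections 9 to 13 (thin lines) and of their sum (black), in each section of the 3 series. The sum is between 16786 and 25720 CPM in left-right sections 9 to 13 and at 7.99 CPM in section 14, and it is low at both ends of the proximo-distal series.

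The left-right middle was tested against the edges by the square of position, fitted beside a straight line over the 16 sections. Of the 179 members tested, 36 passed as high in the middle, against 12.9% of all loci tested, and 39 as high at the edges, against 8.96% (edgeR quasi-likelihood test, adjusted p under 0.05 over 16523 loci). The share of members was 20.1% for the middle and 21.8% for the edges. With groups of sections in place of the curve, 7 members passed for the middle and 24 for the edges. The share of all loci in that fit is not given here. With members chosen against the largest of oral-aboral sections 3 to 8, or by the lower of sections 1 and 2, 11 and 18 passed for the middle. All 21 members of the block were among the 36. Without them 15 of 158 members, 9.49%, passed for the middle and 39 of 158 for the edges. With no low-count filter, 38 members passed for the middle and 37 for the edges, against 10.6% and 6.03% of 22587 loci. The split depended on scaling: by total count alone 44 members passed for the middle and 19 for the edges. Of the 16523 loci, 4177 and 740 passed in that setting, so the members exceeded all loci in share only at the edges. That setting put the median log2 difference between middle and edges of all loci at 0.49, against 0.12 with TMM, and that of the members at 0.32, against -0.04.

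By class, of the 31 section 2 loci tested, 22 passed for the middle and 2 for the edges. Of these 31, 21 are the block, which was chosen for its left-right levels, and of the other 10 only V4_HAP1_PB.1498 passed for the middle and 2 for the edges. Of the 112 loci of both, 9 passed for the middle and 33 for the edges. Of the 36 section 1 loci, 5 passed for the middle and 4 for the edges. Whether the classes differ was not tested.

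**Figure D4:**
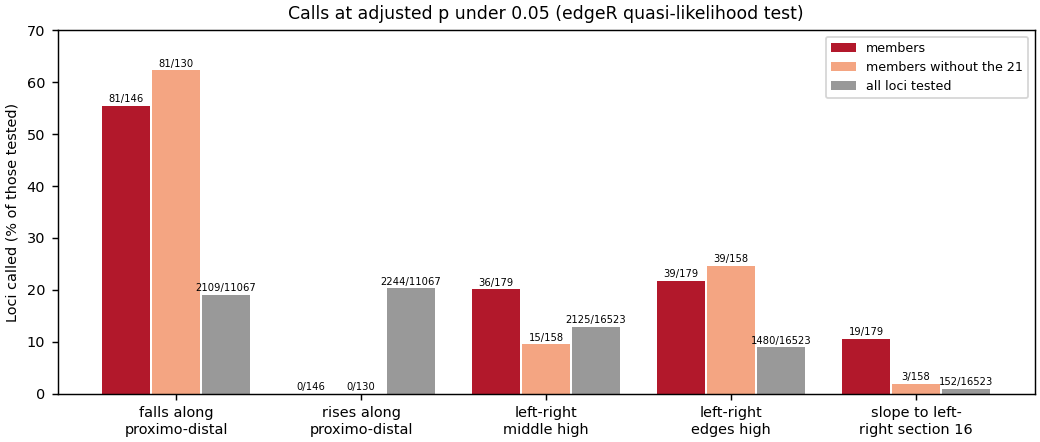
Share of loci called by the edgeR quasi-likelihood test (bars, percent of those tested, with called over tested above each bar) among the members, the members without the 21 of left-right sections 9 to 13, and all loci, for 5 directions. The falling calls hold 55.5% of the members tested and 19.1% of all loci tested, and most of the members' slope calls are among the 21.

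Among members higher in the middle, V4_HAP1_PB.5218 had the smallest p and was not part of the block. It ranged from 0.954 CPM in left-right section 1 to 86.9 CPM in section 11, with a median of 34.2 CPM. It averaged 67.3 ± 20.0 CPM in sections 6 to 11 and 23.7 ± 20.2 CPM in the other 10 (SD), with a fitted log2 difference of 3.49 ± 0.33 between middle and edges (edgeR adjusted p = 7.92e-07), and of 1.36 with groups of sections in place of a curve. Along the proximo-distal axis it had no trend (log2 change 0.00 ± 0.18, adjusted p = 0.998). The 15 middle-high members outside the block averaged 1.70-fold to 7.61-fold more in sections 6 to 11 than in the other 10 sections, with a median of 2.62-fold. V4_HAP2_PB.12795, one of the 5 members with the most oral-aboral counts, was among them, at 70.5 ± 46.2 CPM in sections 6 to 11 and 27.0 ± 13.1 CPM in the other 10 (edgeR adjusted p = 0.00527).

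The next smallest p-values in the middle belonged to 4 loci of the block, V4_HAP1_PB.13417 (edgeR adjusted p = 1.54e-06), V4_HAP1_PB.9993 (1.84e-06), V4_HAP1_PB.6276 (9.18e-06) and V4_HAP1_PB.16208 (2.52e-05). Their fitted log2 values rest on sections with 0 counts and are not given. V4_HAP1_PB.13417 had its highest level, 591.5 CPM, in section 10 and V4_HAP1_PB.16208 its highest, 769.0 CPM, also in section 10. V4_HAP1_PB.9993 was highest in section 11, at 171.1 CPM, and V4_HAP1_PB.6276 in section 13, at 323.2 CPM. The calls of these 4 were lost when sections 6 to 11 were compared with the other 10 (edgeR adjusted p = 0.105, 0.431, 0.661 and 0.360, in the order named). Sections 12 and 13, which belong to the block, count as outer in that comparison, and their part in the loss was not tested.

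Members higher at the edges differed by smaller amounts. The mean of the 10 outer sections was 1.06-fold to 5.93-fold that of sections 6 to 11 over the 39 loci, with a median of 1.46-fold. V4_HAP1_PB.25520 averaged 15.4 ± 11.4 CPM in sections 6 to 11 and 42.4 ± 26.9 CPM outside, with 5.05 CPM in section 8 and 104.0 CPM in section 1 as its extremes and a median of 22.9 CPM (log2 difference -3.0 ± 0.34, edgeR adjusted p = 6.25e-06). V4_HAP1_PB.1514 averaged 82.9 ± 34.4 CPM in sections 6 to 11 and 246.5 ± 92.5 CPM outside, from 35.9 CPM in section 10 to 378.5 CPM in section 16 with a median of 155.6 CPM (log2 difference -2.71 ± 0.36, edgeR adjusted p = 3.29e-05). Each had its lowest section within sections 8 to 10.

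The other 3 named members of the edges were less sharply divided. V4_HAP1_PB.19384 was abundant on both sides, at 781.3 ± 275 CPM in sections 6 to 11 and 1251 ± 351 CPM outside (edgeR adjusted p = 0.000675), with 430.5 CPM in section 10, a median of 1034 CPM and 1767 CPM in section 1. V4_HAP1_PB.3521 averaged 356.7 ± 46.7 CPM in sections 6 to 11 and 524.7 ± 104 CPM outside (edgeR adjusted p = 0.000566), ranging from 277.8 CPM in section 10 to 718.9 CPM in section 2. V4_HAP1_PB.18108 averaged 10.2 ± 3.91 CPM in sections 6 to 11 and 21.0 ± 5.97 CPM outside (edgeR adjusted p = 0.000403), ranging from 4.36 CPM in section 9 to 31.1 CPM in section 16. All 5 named members of the edges were called under every alternative run, with log2 differences of -1.85, -1.79, -0.90, -0.78 and -1.27, in the order described, for groups of sections.

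The left-right and proximo-distal calls came from different specimens. Of the 39 members higher at the edges, 36 were tested along the proximo-distal axis and 32 of them fell (88.9%), against 521 of 1032 among all loci higher at the edges (50.5%). Of the 36 members higher in the middle, 28 were tested there and 4 fell. None of the 16 block loci among the 28 fell, and 4 of the other 12 did, against 97 of 1509 among all loci higher in the middle (6.43%). Of the 5 named members of the edges, 4 fell along the arm, with log2 changes of -4.27 ± 0.62 for V4_HAP1_PB.25520, -3.05 ± 0.48 for V4_HAP1_PB.19384, -2.88 ± 0.73 for V4_HAP1_PB.18108 and -1.24 ± 0.37 for V4_HAP1_PB.3521 (edgeR adjusted p = 4.11e-06, 1.28e-05, 0.00258 and 0.00995). V4_HAP1_PB.1514 did not pass (-1.41 ± 0.62, edgeR adjusted p = 0.0739).

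A slope from section 1 towards section 16 was called in 19 of the 179 members, against 0.92% of all loci tested, and the opposite slope in 0, against 0.151% (edgeR quasi-likelihood test). Before adjustment, 43 members sloped towards section 16 and 16 towards section 1 at edgeR p under 0.05. Among all 16523 loci, 2017 had such a p in either direction. DESeq2 called 8 members towards section 16 and 2 towards section 1, and limma-trend 1 and 0. The share of all loci under DESeq2 and limma-trend is not given here. Of the 19, 16 belonged to the block, whose 5 sections lie off the centre of the 16, and the other 3 were loci of both. The smallest p-values were those of V4_HAP1_PB.9993, V4_HAP1_PB.6276, V4_HAP1_PB.17913, V4_HAP1_PB.12560 and V4_HAP1_PB.16208 (edgeR adjusted p = 3.84e-05, 5.82e-05, 0.000413, 0.000503 and 0.000511). All 5 are of the block, and with the straight line alone none of the 19 was called. Any pattern across the arm, as a curve with 3 degrees of freedom, was called in 84 of the 179 members, against 25.6% of all loci. It peaked in sections 1 to 5 in 30, in sections 6 to 11 in 41 and in sections 12 to 16 in 13.

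The 5 members with the highest ratio were section 1 loci, and several loci of this class had a narrow dip across the arm that the curve over 16 sections did not call. V4_HAP1_PB.9104, first by ratio and by counts, had 4317 and 887.1 CPM in oral-aboral sections 1 and 2, its lowest level of 25.0 CPM in section 4 and 149.9 and 148.9 CPM in sections 7 and 8. In the left-right series it ranged from 378.8 CPM in section 9 to 7578 CPM in section 12, with a median of 2958 CPM. It averaged 746 ± 414 CPM in sections 8 to 10 and 3582 ± 1573 CPM in the other 13 (SD). Along the proximo-distal axis it was far lower, from 40.2 CPM in section 1 to 561.5 CPM in section 10, with a median of 206.0 CPM.

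V4_HAP1_PB.15244 and V4_HAP1_PB.4726 were also lowest in left-right section 9. V4_HAP1_PB.15244 had its highest oral-aboral level, 2567 CPM, in section 1 and its lowest, 77.0 CPM, in section 6. It averaged 32.7 ± 19.8 CPM in left-right sections 8 to 10 and 137.7 ± 70.1 CPM in the other 13, with 10.9 CPM in section 9 and 343.4 CPM in section 12 as its extremes. V4_HAP1_PB.4726 had 593.9 CPM in oral-aboral section 1 and 2.93 CPM in section 4, and averaged 104.8 ± 70.8 CPM in left-right sections 8 to 10 and 553.5 ± 206 CPM in the other 13, with 24.0 CPM in section 9 and 1081 CPM in section 13 as its extremes. Both peaked in proximo-distal section 10, at 158.6 and 92.1 CPM. V4_HAP1_PB.15244 was high again in section 22, with 37 counts in a total of 270586, against 74 in 466643 in section 10 (totals without V4_HAP1_PB.21421). It had 12 counts in section 21 and 1 in section 20. None of the 3 passed the midline test (edgeR adjusted p = 0.254, 0.315 and 0.210).

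Such a dip, a mean of left-right sections 8 to 10 under 50% of that of the other 13, was looked for after these values were seen. Among loci with at least 100 left-right counts it was found in 21 of 155 members, 13.5%, and in 880 of 13235 loci, 6.65%. It was found in 9 of 29 section 1 loci, in 9 of 98 loci of both and in 3 of 28 section 2 loci. A list built in the same way from the opposite face, the 200 loci with the highest ratio of oral-aboral sections 7 and 8 over the largest level among sections 1 to 5, had it in 95 of 155. That list shares 0 loci with the members and held 3.76% of the counts of left-right section 9, where its share was lowest, and 28.8% of those of section 1. Of its 178 loci tested across the arm, 108 passed for the edges and 7 for the middle, and of 97 tested along the arm, 19 fell and 1 rose.

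**Figure D5:**
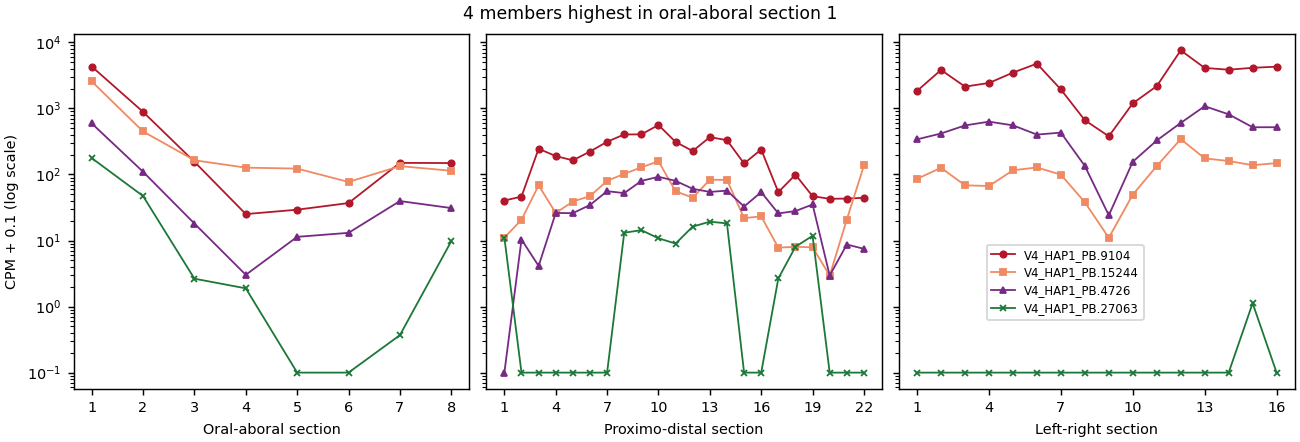
CPM + 0.1 (log axis) of 4 section 1 loci in each section of the 3 series. V4_HAP1_PB.9104, V4_HAP1_PB.15244 and V4_HAP1_PB.4726 are lowest in left-right section 9, at 378.8, 10.9 and 24.0 CPM, while V4_HAP1_PB.27063 has 1 count in the left-right series.

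Of the 200 members, 3 had at most 3 counts over the left-right series of specimen 2 (1.5%), about as many as among all eligible loci (308 of 16290, 1.89%). V4_HAP1_PB.27063, among the 10 highest ratios with 177.2 CPM in oral-aboral section 1, had 1381 oral-aboral and 46 proximo-distal counts but 1 left-right count. V4_HAP2_PB.19416 had 109, 22 and 0 counts in the 3 series and V4_HAP1_PB.2867 had 240, 64 and 0. Of the 308, V4_HAP1_PB.27063 was the only one with over 1000 oral-aboral counts. Its neighbour by identifier, V4_HAP1_PB.27062, had 370 oral-aboral, 28 proximo-distal and 14 left-right counts. The members V4_HAP1_PB.3498 and V4_HAP1_PB.27062, with 35.2 and 48.5 CPM in oral-aboral section 1, stood at or under 14.0 and 3.11 CPM in every left-right section. Only 1 animal was cut in each orientation, so differences between specimens cannot be told apart from differences between cutting directions.

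Among the members, 12 pairs of identifiers differed by at most 2 in their number, and in 9 of the pairs both loci were of the same class. With classes of 128, 40 and 32 members, many pairs match by class size alone, and neither count was tested. The 12 pairs covered 21 loci, such as V4_HAP1_PB.9101, V4_HAP1_PB.9102 and V4_HAP1_PB.9104, and V4_HAP1_PB.17912, V4_HAP1_PB.17913 and V4_HAP1_PB.17914. The list of the opposite face had 22 such pairs over 39 loci. The sources used here do not say whether numbers follow the genome, and reads of near-identical copies could be divided between such loci.

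Genes named by symbol are rows of another assembly tag, whose reads may also belong to an unnamed row, and they are not members. Of 56 such rows with at least 100 oral-aboral counts, 15 had a ratio above 1 (26.8%), against 4081 of all 16290 eligible loci (25.1%), and their median ratio was 0.549, against 0.744 for all. Of 15 anterior patterning genes 5 had a ratio above 1, of 9 Hox genes 0, of 9 Wnt genes 2 and of 2 endodermal genes, FoxA and Nkx2.2, 0.

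Emx, a homeobox gene whose vertebrate counterparts pattern the forebrain, was the one symbol whose ratio, 2.64, reached that of the lowest member. It stood at 166.4, 68.5, 57.5, 43.9, 43.8, 36.0, 8.06 and 5.07 CPM in oral-aboral sections 1 to 8, a decline over the whole series. Along the arm it ranged from 31.3 CPM in section 9 to 119.6 CPM in section 15, with no trend (log2 change 0.16 ± 0.34, edgeR adjusted p = 0.739). Across the arm it ranged from 17.2 CPM in section 1 to 79.9 CPM in section 14, with no difference between middle and edges that passed (adjusted p = 0.952).

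For likeness of profile, symbol rows with at least 20 counts over the series in question were used, 56 along the arm and 60 across it. These 56 are not the same rows as the 56 above. The summed members were most like Wnt3, a secreted signalling ligand, along the 22 proximo-distal sections, with a Pearson r of 0.92 in log2(CPM + 1). Tbx2-3, a T-box transcription factor, had 0.89 and the ligand BMP2-4 had 0.80. The least like were Nkx2.2 (-0.85), Nkx2.1 (-0.77) and Irx (-0.76), all homeobox genes. Across the 16 left-right sections the most like of 60 rows were the Wnt modulator Dkk3 (0.75), the nuclear receptor Tailless (0.71) and Wnt3 (0.68). The least like were Hox1 (-0.53), BMP2-4 (-0.48) and Hox4 (-0.44), but this order changed when the 21 loci of the block were left out. Without them the most like across the arm were Hox5 (0.85), Hox11-13d (0.84) and the paired-box gene Pax2-5-8 (0.79), and the least like were Wnt2 (-0.87), FezF (-0.85) and Lhx3-4 (-0.84). Along the arm Wnt3 (0.88) and BMP2-4 (0.85) were again the most like without them. The 21 loci of the block, taken alone, were most like Tailless (0.93), the homeobox gene Dmbx (0.89) and the paired-box gene Pax6 (0.86) across the arm. Along the arm they were most like Hox11-13b (0.83) and least like the zinc-finger gene FezF (-0.82). These values describe profiles that share libraries and depths and carry no test. Wnt3 stood at 8.55, 3.44 and 0 CPM in proximo-distal sections 20 to 22, where the members' share was lowest too. The part of these sections in its r was not tested.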

How the data were processed

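Counts were used as the authors deposited them, unnormalised whole numbers for 25794 rows (transcript models) in 46 libraries, all of them used. Libraries followed a full-length Iso-Seq template protocol, per the labels' protocols. The aligner, counting tool and genome build were not given in the sources used here. Rows of 1 locus were summed, and the RefSeq gene table matched 0 identifiers. CPM are computed per 1000000 counts without V4_HAP1_PB.21421.

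Tests were run with edgeR 4.0.16 in R 4.3.3 on all loci of 1 series: filterByExpr (minimum count 5, minimum total 15), TMM scaling, glmQLFit and glmQLFTest, and Benjamini-Hochberg adjustment over all loci tested at 0.05. Position was scaled from 0 to 1 along the arm, and from -1 to 1 with its square across it. A natural spline had 3 degrees of freedom. Alternatives included DESeq2 1.42.0 and limma-trend (limma 3.58.1, prior count 2). The fits were run on simulated counts drawn independently for each section, so that run does not address the dependence of neighbouring sections.

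Named members are the 10 with the highest ratio, the 5 with the most oral-aboral counts, the 5 with the smallest p in each direction of each trend, and loci around the limit of the ratio. Others were named after their values were seen. The members and lists were chosen with earlier results of these data known. Likeness is Pearson's r in log2 of CPM with a pseudocount of 1, over symbol rows with at least 20 counts in the series. Fitted changes are on the log2 scale.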

Additional observations from a re-analysis of the deposited data

How the results depend on the processing

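The count of falling members, 81, lay between 69 and 83 when each section was left out in turn and between 59 and 104 under the other alternatives. The counts of members with any pattern lay between 109 and 124 along the arm and between 71 and 89 across it, leaving out sections. The count of rising members, 0, was 1 with no low-count filter, with limma-trend and with rows not summed, 2 for groups of sections, 3 without both end sections, 7 with DESeq2 and 15 without sections 20 to 22. Leaving out single sections gave 0 to 7, with 1 without section 8 or section 20, 2 without section 21 and 7 without section 22.

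Across the arm, the count in the middle, 36, was 7 for groups of sections, 11 with members chosen against the largest of oral-aboral sections 3 to 8, 18 with the lower of sections 1 and 2 in place of their mean, and 15 without the 21. Leaving out sections gave 31 to 39. The count at the edges, 39, was 19 by total count, with or without V4_HAP1_PB.21421, and 24 for groups of sections, and 27 to 41 leaving out sections. The count sloping towards section 16, 19, was 8 with DESeq2, 1 with limma-trend, 6 for groups of sections, 0 with a straight line alone, 3 and 2 with the 2 other choices of members, and 3 without the 21, and 17 to 23 leaving out sections. The count sloping towards section 1, 0, was 2 with DESeq2, 1 without both end sections, and 0 to 1 leaving out sections, with 1 without section 16. The cause was not tested. The fits without sections 20 to 22 and without the 21 were chosen after seeing the data.

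Of 20 named results, 11 were called in every alternative, 9 lost a call in at least 1, and 0 reversed. The lists chosen with other settings shared 163 loci (pseudocount 5), 169 (at least 200 counts), 133 (sections 3 to 8) and 131 (lower of sections 1 and 2) with the members. By total count alone the median log2 change along the arm was -2.12 for the members and -0.66 for all loci. No paired analysis was possible because section numbers are positions, each test is within 1 series and no number pairs samples. Depth limits the proximo-distal series most: 54 of the 200 members had too few counts to test there.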
